A study of Mus musculus with 3 samples.

Results

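Translation initiation and elongation factors were taken as the protein-coding genes whose mouse symbol begins with Eif1 to Eif6, Eef1 or Eef2. The rule found 68 genes in the annotation, and 66 of them had a column among the 29267 gene identifiers of the count tables. Eef1akmt4 and Eif4ebp3 had none and are not analysed here. Of the 66, 64 were tested with the 17119 genes that passed a filter on low counts. The others, Eef1a2 and Eif4e1b, had 6 and 4 UMIs over all kept wells. A UMI, or unique molecular identifier, marks 1 captured RNA molecule.

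The cells were blastocyst-derived mouse embryonic stem cells, single cells in wells of 3 plates, and every plate held 3 cell types. Inhibited cells had MLL1 inhibition, deleted cells were Mll1-/-, and control cells were Mll1fl/fl. All 3 come from C57BL/6J cells with Mll1fl/fl alleles, loxP-flanked copies of a histone H3 lysine 4 methyltransferase gene, and with Cre-ER TM, a tamoxifen-inducible Cre. The labels give neither the inhibitor, its dose and time, nor the deleted exons, nor what drives the Cre or how many clones were used. Nothing says that plates were separate cultures. The main fits take the plate as a block, so their p-values measure how differences within a plate vary from plate to plate. That spread may be technical.

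Protein synthesis starts when eIF2, loaded with GTP and the initiator tRNA, joins the small ribosomal subunit together with eIF1, eIF1A, eIF3 and eIF5. The eIF4F complex (the cap-binding eIF4E, the helicase eIF4A and the scaffold eIF4G) brings in the messenger RNA, and 4E-binding proteins hold eIF4E away from the scaffold until mTORC1 phosphorylates them. During elongation eEF1A delivers aminoacyl-tRNAs and is recharged by the eEF1B subunits, eEF2 moves the ribosome along, and eIF5A relieves stalling. Kinases that sense stress phosphorylate eIF2 and so block its recharging by eIF2B. Embryonic stem cells are known for low global translation relative to their differentiating progeny.

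The 9 libraries, each the sum of the kept wells of 1 cell type on 1 plate, held 25914860 to 43773924 UMIs from 1590 inhibited, 1310 deleted and 1513 control wells. Of the barcodes of kept wells, 3260 were distinct, 1040 occurred on at least 2 plates and 113 on all 3. Kmt2a, the Mll1 gene, stood at 40.6 to 46.7 CPM (UMIs scaled to the effective library size) in inhibited, 39.2 to 62.1 CPM in deleted and 50.2 to 54.7 CPM in control libraries, which does not check the genotype because the deleted exons are not named. The 10 stem cell markers were all detected, with summed levels of 4658 to 5499, 5224 to 6665 and 6288 to 6475 CPM in inhibited, deleted and control libraries, most of it Dppa5a (3823 to 5847 CPM). Pou5f1 stood at 47.8 to 61.1 CPM and Nanog at 9.94 to 25.4 CPM. Summed markers of fibroblasts and feeders (1.81 to 17.2 CPM) and of primitive endoderm (2.68 to 8.07 CPM) were low. The median mitochondrial share per well was 3.24 to 3.48% in inhibited, 3.81 to 4.16% in deleted and 3.06 to 3.18% in control libraries.

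The factors together took 2.22 to 2.56% of all UMIs. Eif4ebp1, Eif2s2 and Eif5a together supplied 42.0% of their summed CPM. Per kilobase of exon, Eif4ebp1, the gene of the eIF4E inhibitor 4E-BP1, was highest, with a mean level of 1904 CPM per kb over the 9 libraries. Eif2s2, the beta subunit of eIF2, followed at 652 CPM per kb, and Eif5a at 604 CPM per kb. The eEF1A gene Eef1a1 came next, at 328 CPM per kb. Such levels assume counts that scale with exon length; the transcript end that was counted is not stated in the labels. In counts, Eif4ebp1 and Eif2s2 supplied 17.5 and 18.5% of the factors' summed CPM. With every kept well thinned to 5869 UMIs, Eif4ebp1 was seen in all 3971 wells deep enough to thin, and its median per library was 22 to 29 UMIs a well in inhibited, 20 to 24 in deleted and 22 to 26 in control cells. The variance of its UMIs between thinned wells was 4.43 to 7.01 times their mean.

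Wells without cells held UMIs of the factors as well. In 15 wells without cells, 72 of 2719 UMIs (2.65%) came from the factors, against 2.39% over the kept wells, and 16 of the 72 were Eif4ebp1. Those wells held a median of 165 UMIs, against 36355 in kept wells. Conditions were compared over summed libraries, not over single wells. In bulk sums, fewer expressing cells and less RNA per cell cannot be told apart.

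**Figure D1:**
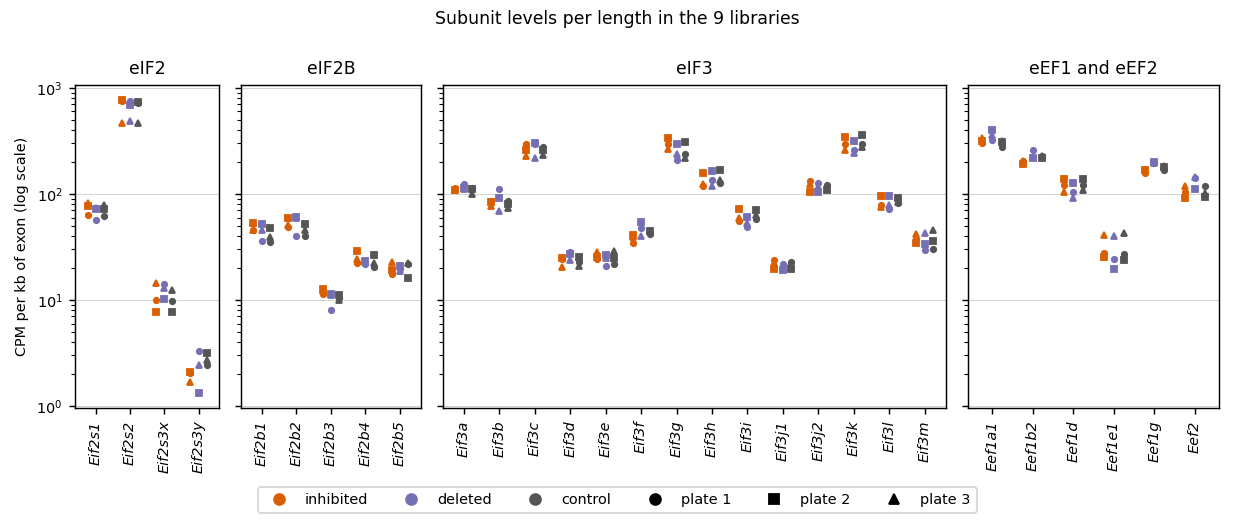
Levels of the tested subunits of eIF2, eIF2B, eIF3 and eEF1 with Eef2, in CPM per kilobase of exon on a log axis, 1 point per library (colour: cell type, shape: plate). Eif2s2, with a mean of 652 CPM per kb, lies far above its partner subunits in all 9 libraries.

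Within the eIF2 and eIF3 complexes the subunits stood at very unequal levels. Eif2s2 had 5110, 5242 and 3159 CPM in the inhibited libraries of plates 1 to 3. The deleted libraries had 5129, 4628 and 3277 CPM of it, and the control libraries 4911, 5009 and 3184 CPM. Its level on plate 3 was the lowest in each cell type, and the cell types overlapped. The alpha subunit gene Eif2s1 (70.9 CPM per kb) and the gamma subunit gene Eif2s3x (11.1 CPM per kb) were far below the 652 CPM per kb of Eif2s2. Among the 14 genes of eIF3, the scaffold around which the initiating small subunit is built, mean levels ran from 21.4 CPM per kb for Eif3j1 to 294 CPM per kb for Eif3k. Eif3g (268 CPM per kb), Eif3c (263 CPM per kb) and Eif3h (139 CPM per kb) were next. This order depends on the division by exon length. In mean CPM alone, Eif3a (978) and Eif3c (923) were the highest of the 14, above Eif3k (793). The 5 genes of the exchange factor eIF2B lay between 10.9 CPM per kb for Eif2b3 and 50.8 CPM per kb for Eif2b2.

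The kinase genes were low. Eif2ak1 (HRI) and Eif2ak2 (PKR) had means of 4.34 and 4.54 CPM per kb, Eif2ak4 (GCN2) 1.47 and Eif2ak3 (PERK) 0.724 CPM per kb. The elongation factor 2 kinase gene Eef2k stood at 0.268 CPM per kb. Of 57 factors with a mean of at least 10 CPM, the median gene had 57.7% of its log2 spread between plates and 19.4% between cell types, against 38.2 and 23.3% over all 7577 genes at that level. In all 3 cell types, 18 of the 57 factors (31.6%) were highest on plate 2, against 16.4% of all genes at that level.

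The first comparison set Mll1 deleted cells against control. None of the 64 factors passed the threshold, an adjusted p under 0.05 in edgeR's quasi-likelihood test, where 0.0350% of all genes did. At an unadjusted p under 0.05 there were 12 factors (18.8%), against 10.3% of all genes. Of the 12, 7 were higher and 5 lower, against 5.11 and 5.22% of all genes. With DESeq2, 3 factors passed (1.95% of all genes), namely Eef2, Eef1a1 and Eif3i. The 3 deleted and 3 control libraries did not overlap in CPM for 5 factors, against 11.0% of all genes. These were Eef1a1, Eef1g, Eif2a and Eef2k, higher (5.44% of all genes), and Eef1akmt1, lower (5.52%). The direction was the same on all plates for 29 factors (45.3%), against 31.7% of all genes. The median log2 difference over the factors was -0.01, and 29 of 64 (45.3%) lay above 0. Over all genes the median was 0, with 50% above it. Among genes with at least 10 CPM the shares at an unadjusted p under 0.05 were 21.1% of 57 factors and 15.3% of all genes.

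The elongation factor genes Eef2 and Eef1a1 had the smallest p. Eef2, the translocase, was at 466, 372 and 476 CPM in deleted cells on plates 1 to 3, against 393, 309 and 340 CPM in control cells. Each plate was higher in deleted cells, though the groups overlapped, and the fitted log2 difference was 0.33 ± 0.08 (SE; edgeR adjusted p = 0.203). Eef1a1 was at 807, 1008 and 902 CPM in deleted cells, against 691, 777 and 784 CPM in control cells. All deleted libraries lay above all control libraries, with a log2 difference of 0.27 ± 0.06 (adjusted p = 0.203; 0.18 with wells thinned to equal depth). Both missed the threshold here but passed it with no filter on low counts (adjusted p = 0.0229 for Eef2 and 0.0308 for Eef1a1, where 0.613% of 29206 genes passed), and Eef2 also with wells thinned to equal depth (0.0163, where 0.709% of genes passed).

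The eEF1B subunit genes, which recharge eEF1A, did not move together after deletion. Eef1g (gamma) was at 506, 523 and 504 CPM in deleted cells, against 442, 463 and 481 CPM in control cells, with no overlap and a log2 difference of 0.15 ± 0.06 (adjusted p = 0.414). Eef1d (delta) lay on the other side, at 683, 828 and 598 CPM in deleted cells, against 795, 907 and 702 CPM in control cells (-0.19 ± 0.05, adjusted p = 0.247). It was lower on each plate, but the groups overlapped. Eef1b2 (beta) averaged 595 ± 60.7 CPM after deletion, against 568 ± 17.0 CPM in control (SD, n = 3), a log2 difference of 0.06 ± 0.06. Eef1e1, whose product sits in the multisynthetase complex, had a log2 difference of -0.17 ± 0.09. The summed eEF1 genes were at 2740, 2981 and 2698 CPM in deleted cells, against 2597, 2773 and 2681 CPM in control cells. Their mean log2 ratio over plates was 0.06 ± 0.05 (SD, n = 3), above 0 on each plate.

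Among initiation factors, 2 eIF3 genes that lay lower than control had the smallest p. Eif3i was at 179, 224 and 196 CPM in deleted cells, against 215, 259 and 237 CPM in control cells (-0.25 ± 0.07, adjusted p = 0.237). With wells thinned to equal depth the difference of Eif3i was -0.09, and without the deepest 5% of wells -0.14. Eif3k was at 702, 851 and 655 CPM in deleted cells, against 792, 966 and 742 CPM in control cells (-0.18 ± 0.05, adjusted p = 0.275). Both were lower on every plate, and the groups overlapped. Eif3d, the subunit that can bind the cap, was higher on every plate (0.19 ± 0.08, adjusted p = 0.426; 0.30 with thinned wells). The other 11 eIF3 genes had log2 differences between -0.08 for Eif3m and 0.16 for Eif3b, with 0.10 ± 0.05 for the scaffold subunit gene Eif3a and -0.07 ± 0.07 for Eif3l. The eIF3 genes summed to 5187, 5558 and 4667 CPM in deleted cells, against 5118, 5489 and 4824 CPM in control cells, a mean log2 ratio of -0.00 ± 0.04 (SD, n = 3).

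In eIF2, Eif2s3x stood at 53.9, 39.2 and 50 CPM in deleted cells, against 37.5, 29.7 and 47.3 CPM in control cells. It was higher on each plate, with overlap (0.34 ± 0.14, adjusted p = 0.431; 0.21 with thinned wells). Eif2s1 (-0.07 ± 0.06) and Eif2s2 (-0.00 ± 0.05) were close to 0, and so was the eIF2 sum, at a mean log2 ratio of -0.01 ± 0.09 (SD, n = 3). Eif1ax, which helps the small subunit scan, was lower on every plate, at 253, 299 and 273 CPM in deleted cells, against 289, 335 and 313 CPM in control cells (-0.18 ± 0.07, adjusted p = 0.388). In the eIF4 group, Eif4b, a helper of the eIF4A helicase, had a log2 difference of 0.23 ± 0.09 (adjusted p = 0.417). Eif4g2, an eIF4G-like factor of cap-independent initiation, had one of 0.16 ± 0.07 (0.466). The core genes of eIF4F, Eif4e (-0.10 ± 0.10), Eif4a1 (0.05 ± 0.08), Eif4a2 (-0.14 ± 0.10) and Eif4g1 (0.02 ± 0.08), did not pass, nor did Eif4h (0.10 ± 0.08), a helper of the helicase, or Eif4a3 (-0.01 ± 0.08), a helicase of the exon junction complex. The eIF4 sum had a mean log2 ratio of 0.02 ± 0.02 (SD, n = 3). In the same comparison 4 of 5 tested trophectoderm markers were higher at an unadjusted p under 0.05, and none was called. The summed list of 6 was at 971 to 1615 CPM in deleted and 747 to 884 CPM in control libraries. Of 3 tested fibroblast and feeder markers 1 lay above 0, Acta2 (1.73 ± 0.44, adjusted p = 0.225), and 2 below, with a median of -0.29. Acta2, also a gene of smooth muscle and of other cells, made up most of that list's sum of 9.96 to 17.2 CPM in deleted and 2.71 to 6.77 CPM in control libraries. Of 10 stem cell markers 2 were lower at an unadjusted p under 0.05, Tdgf1 (-0.30 ± 0.07, adjusted p = 0.194) and Sox2 (-0.23 ± 0.08, 0.384). Of the 10, 6 lay below 0 and 4 above. That list summed to 5224 to 6665 CPM in deleted and 6288 to 6475 CPM in control libraries. The median mitochondrial share was 3.81 to 4.16% in deleted and 3.06 to 3.18% in control libraries. Their part in the differences above was not tested.

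**Figure D2:**
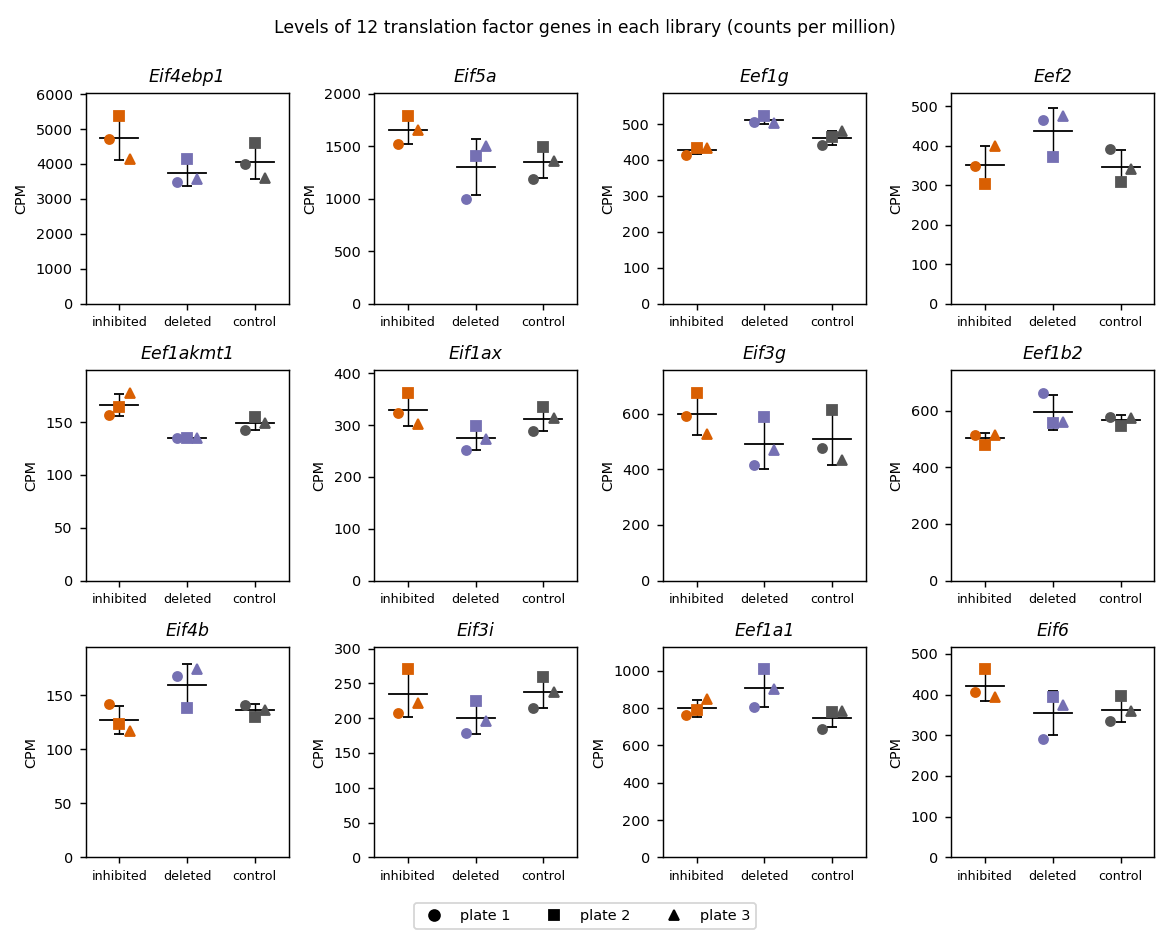
Levels in CPM of 12 factor genes in inhibited, deleted and control cells (points: libraries, shape by plate; bars: mean ± SD of 3 plates; axes start at 0). Eif4ebp1 and Eif5a lie higher in every inhibited library than in any deleted one, and Eef1g lies lower.

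The second comparison set MLL1 inhibited cells against the same control libraries. Again none of the 64 factors passed edgeR's threshold, which 0.00584% of all genes passed. There were 8 factors at an unadjusted p under 0.05 (12.5%), against 9.0% of all genes. Of the 8, 7 were higher and 1 lower, against 4.77 and 4.23% of all genes. DESeq2 called 2, Eif4ebp1 and Eif5a, where it called 1.62% of all genes. The groups did not overlap for 10 factors, against 11.3% of all genes. Those higher were Eif5a, Eif5, Eif2a, Eef1akmt1, Eif2b3 and Eif4ebp2 (5.02% of all genes), and those lower Eef1b2, Eef1g, Eif3f and Eif2s3y (6.23%). The direction was the same on all plates for 25 factors (39.1%), against 32.9% of all genes. The factors had a median log2 difference of 0.02, with 37 of 64 (57.8%) above 0, as were 49.9% of all genes. Among genes with at least 10 CPM, 14% of 57 factors and 13.4% of all genes had an unadjusted p under 0.05. Of 10 stem cell markers 3 were lower at an unadjusted p under 0.05, namely Nanog (-0.84 ± 0.21, adjusted p = 0.355), Dppa5a (-0.38 ± 0.09, 0.355) and Tdgf1 (-0.19 ± 0.07, 0.445). Of the 10, 6 lay below 0 and 4 above, the latter Pou5f1, Klf4, Utf1 and Sall4. The list summed to 4658 to 5499 CPM in inhibited and 6288 to 6475 CPM in control libraries. Most of it was Dppa5a, at 3823 to 4687 CPM in inhibited and 5477 to 5578 CPM in control libraries. The median mitochondrial share was 3.24 to 3.48% in inhibited and 3.06 to 3.18% in control libraries. Their part in the differences below was not tested.

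Eif4ebp1, the gene of the eIF4E inhibitor 4E-BP1, had the smallest p. It was at 4729, 5380 and 4134 CPM in inhibited cells on plates 1 to 3, against 4007, 4590 and 3604 CPM in control cells. Each plate was higher in inhibited cells by a similar log2 ratio (0.24, 0.23 and 0.20), although the groups overlapped, and the fitted log2 difference was 0.22 ± 0.05 (adjusted p = 0.313). Eif5a was at 1520, 1792 and 1657 CPM in inhibited cells, against 1194, 1491 and 1360 CPM in control cells. No library overlapped, and the difference was 0.30 ± 0.08 (adjusted p = 0.355). With no filter on low counts both passed (adjusted p = 0.0218 and 0.0150, where 0.370% of genes passed). In thinned wells neither did, at 0.15 for Eif4ebp1 (adjusted p = 0.264) and 0.16 for Eif5a (0.405).

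Eif5 and Eif6 were also higher without passing. Eif5, which makes eIF2 hydrolyse its GTP at the start codon, was at 832, 929 and 869 CPM in inhibited cells, against 729, 801 and 771 CPM in control cells, with no overlap (0.19 ± 0.06, adjusted p = 0.389). Eif6, which keeps the large subunit free, was at 406, 462 and 395 CPM in inhibited cells, against 334, 396 and 359 CPM in control cells (0.22 ± 0.08, adjusted p = 0.431). It was higher on each plate, with 1 inhibited library just below 1 control library. Eif5b, the GTPase that joins the subunits, averaged 540 ± 26.7 CPM after inhibition, against 545 ± 21.5 CPM in control (SD, n = 3), a log2 difference of -0.01 ± 0.06.

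The eIF2B sum was higher on all plates, at 387, 459 and 415 CPM in inhibited cells, against 343, 406 and 369 CPM in control cells. Its log2 ratio was 0.17, 0.18 and 0.17 on plates 1 to 3. By subunit, the differences were 0.26 ± 0.09 for Eif2b1 (alpha; adjusted p = 0.424; 0.10 with thinned wells), 0.20 ± 0.11 for Eif2b2 (beta), 0.20 ± 0.11 for Eif2b3 (gamma), 0.13 ± 0.10 for Eif2b4 (delta) and -0.02 ± 0.14 for the catalytic Eif2b5 (epsilon). None passed. Their substrate eIF2 had a summed log2 ratio of 0.04 ± 0.03 (SD, n = 3). All 4 eIF2 kinase genes had positive differences, from 0.10 ± 0.24 for Eif2ak4 to 0.35 ± 0.34 for Eif2ak2, none of which passed, and their sum was lower than control on plate 2 (log2 ratio -0.02).

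Elongation genes showed no common direction after inhibition. Eef1b2 was lower, at 516, 481 and 515 CPM in inhibited cells, against 580, 548 and 575 CPM in control cells, with no overlap (-0.17 ± 0.06, adjusted p = 0.451). Eef1g was lower without overlap as well (-0.11 ± 0.06, adjusted p = 0.598). Eef1a1 (0.09 ± 0.06), Eef1d (-0.03 ± 0.05) and Eef2 (0.01 ± 0.08) did not pass. Eef2 was at 350, 304 and 399 CPM in inhibited cells, against 393, 309 and 340 CPM in control cells, lower on plates 1 and 2 and higher on plate 3. In eIF3 the highest difference was 0.25 ± 0.08 for Eif3g (adjusted p = 0.379), an RNA-binding subunit at 591, 676 and 528 CPM in inhibited cells, against 476, 613 and 435 CPM in control cells. With wells thinned to equal depth Eif3g was at 0.06 (adjusted p = 0.884). The lowest was -0.19 ± 0.10 for Eif3f. The sums of eIF3 (0.03 ± 0.03), eIF4 (-0.03 ± 0.03) and eEF1 (-0.03 ± 0.02) had mean log2 ratios near 0 (SD, n = 3).

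Over all factors, the summed level was 25182, 26787 and 22739 CPM in inhibited cells, against 23546, 25272 and 21579 CPM in control cells. The mean log2 ratio was 0.09 ± 0.01 (SD, n = 3), positive on every plate, and in deleted against control cells it was -0.01 ± 0.03. Without Eif4ebp1 the ratio of inhibited to control was 0.06 ± 0.01, and without Eif4ebp1, Eif2s2 and Eif5a it was 0.03 ± 0.01. With wells thinned to equal depth, the ratio over all factors was 0.03, that of eIF2 -0.03 and that of eIF3 -0.03. No test was made on these sums.

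**Figure D3:**
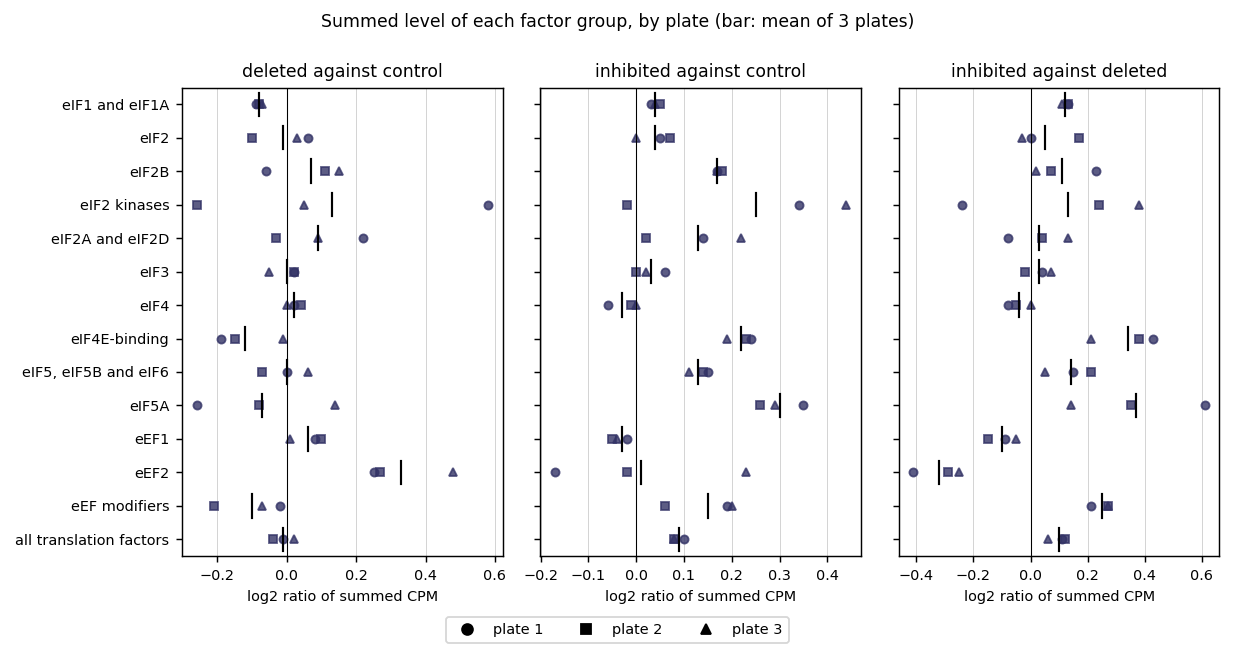
Log2 ratio of the summed CPM of each factor group on each plate (shapes) with the mean of 3 plates (bars), for the 3 comparisons, whose horizontal axes differ in range. The mean ratios of eIF2, eIF3 and eIF4 lie between -0.04 and 0.05. The eIF4E-binding and eIF5A groups, carried almost wholly by Eif4ebp1 and Eif5a, lie above 0 on every plate in both comparisons of inhibited cells. So do the eIF1 and eIF1A group, eIF2B, the group of eIF5, eIF5B and eIF6, the eEF modifiers and the sum of all factors.

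Inhibited cells were also set against deleted cells, in a comparison that reuses the libraries of the others. Of the 64 factors 1, Eif4ebp1 (chr8:27260329-27276674, plus strand, GRCm38), rose past the threshold, against 0.310% of all genes. It was at 4729, 5380 and 4134 CPM in inhibited cells, against 3484, 4129 and 3581 CPM in deleted cells. The lowest inhibited library was just above the highest deleted library, so the groups did not overlap. The log2 difference was 0.34 ± 0.05 (edgeR adjusted p = 0.0273), or 1.27-fold, and by plate it was 0.44, 0.38 and 0.21. On each plate the control library lay between the inhibited and the deleted one, at 4007, 4590 and 3604 CPM. As a group, control libraries overlapped both. The call on Eif4ebp1 did not hold without plate 1 (adjusted p = 0.388), without plate 2 (0.442), without the plate as a replicate block (0.444) or without the deepest 5% of wells (0.0550). In those fits the log2 difference was 0.28, 0.32, 0.35 and 0.30, and 0.0290, 0, 0.0175 and 0.176% of all genes passed. At equal depth per well it was 0.27 (adjusted p = 0.00563), and over 11 alternative settings it ran from 0.27 to 0.41. In the same comparison 3 of 5 tested trophectoderm markers were called lower (Krt8, Krt18 and Krt19), with the summed list of 6 at 540 to 887 CPM in inhibited, 971 to 1615 CPM in deleted and 747 to 884 CPM in control libraries. Of that list Elf5 was at or near 0 in every library. Fibroblast and feeder markers summed to 1.81 to 8.54 CPM in inhibited and 9.96 to 17.2 CPM in deleted libraries. Most of this was Acta2 (-1.60 ± 0.43, adjusted p = 0.153), and Col1a1 had a log2 difference of 0.22. The median mitochondrial share was 3.24 to 3.48% in inhibited and 3.81 to 4.16% in deleted libraries. Their part in the difference of Eif4ebp1 was not tested.

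At an unadjusted p under 0.05 this comparison held 19 of 64 factors (29.7%), against 13.7% of all genes. Of the 19, 12 were higher and 7 lower, against 6.98 and 6.68% of all genes. Among genes with at least 10 CPM the shares were 33.3% of 57 factors and 20.2% of all genes. DESeq2 called 11 factors, where it called 4.29% of all genes. It called Eif4ebp1, Eif5a, Eif6, Eif1ax, Eif3g, Eif3i and Eef1akmt1 higher, and Eef1g, Eef2, Eef1b2 and Eif4b lower. Libraries did not overlap for 8 factors, against 11.8% of all genes. Eif4ebp1, Eif5a, Eef1akmt1, Eif1ax, Eif6 and Eif2b3 were the 6 higher (5.39% of all genes), Eef1g and Eef1b2 the 2 lower (6.38%). The direction was the same on all plates for 31 factors (48.4%), against 33.1% of all genes. The factors' median log2 difference was 0.03, with 35 of 64 (54.7%) above 0, as were 49.6% of all genes. With no filter on low counts 4 factors passed (Eif4ebp1, Eif5a, Eef2 and Eif3g; 1.31% of genes), and with wells thinned to equal depth 5 (Eif4ebp1, Eif5a, Eef2, Eef1b2 and Eif4enif1; 1.45% of genes).

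Eif5a was next by p, at 1520, 1792 and 1657 CPM in inhibited cells, against 996, 1410 and 1501 CPM in deleted cells. The groups did not overlap, and the difference was 0.36 ± 0.08 (adjusted p = 0.0953), although by plate it ran from 0.61 on plate 1 to 0.14 on plate 3 and was 0.23 without plate 1 (adjusted p = 0.483). It passed without plate 3 (0.48, adjusted p = 0.0374, where 0.421% of genes passed) and with wells thinned to equal depth (0.31, 0.0116). Dhps and Dohh, named here after their values were seen, whose enzymes make the hypusine residue that eIF5A needs, had log2 differences of 0.34 ± 0.11 (adjusted p = 0.220) and 0.14 ± 0.09 (0.594).

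Several elongation genes lay lower in inhibited than in deleted cells, though none passed in the main fit. With DESeq2, Eef1g (adjusted p = 0.00755), Eef2 (0.00944) and Eef1b2 (0.0337) passed. Eef1g was at 414, 434 and 433 CPM in inhibited cells, against 506, 523 and 504 CPM in deleted cells, with no overlap (-0.26 ± 0.06, adjusted p = 0.0992). Eef1b2 did not overlap either, at 516, 481 and 515 CPM in inhibited cells, against 665, 557 and 562 CPM in deleted cells (-0.24 ± 0.06, adjusted p = 0.149). Eef2 was at 350, 304 and 399 CPM in inhibited cells, against 466, 372 and 476 CPM in deleted cells, lower on each plate (-0.32 ± 0.08, adjusted p = 0.126). With wells thinned to equal depth, Eef2 (-0.36, adjusted p = 0.00705) and Eef1b2 (-0.30, 0.0123) passed. The methyltransferase gene Eef1akmt1, whose product modifies eEF1A, lay on the other side, at 157, 164 and 178 CPM in inhibited cells, against 135 CPM in each deleted library (0.30 ± 0.07, adjusted p = 0.132). Eef1a1 was lower (-0.18 ± 0.06, adjusted p = 0.255) and Eef1d higher (0.17 ± 0.05, adjusted p = 0.190). The eEF1 sum had a mean log2 ratio of -0.10 ± 0.05 (SD, n = 3), below 0 on every plate.

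Among initiation factors, Eif1ax lay higher, at 324, 363 and 302 CPM in inhibited cells, against 253, 299 and 273 CPM in deleted cells (0.26 ± 0.07, adjusted p = 0.136). Those groups did not overlap, and with thinned wells the difference was 0.12. The 5 genes for eIF1, eIF1A and their relatives summed to 1021, 1095 and 1041 CPM in inhibited cells, against 935, 997 and 963 CPM in deleted cells, and control stood at 996, 1057 and 1012 CPM. Eif3g (0.29 ± 0.08, adjusted p = 0.141), Eif3i (0.22 ± 0.07, 0.173) and Eif3k (0.14 ± 0.05, 0.259) were higher. With thinned wells Eif3g was at 0.18 and Eif3i at 0.12, and without plate 1 Eif3g was at 0.17. By contrast, Eif3f (-0.31 ± 0.10, 0.223) and Eif3d (-0.19 ± 0.08, 0.315) were lower. The eIF3 sum had a mean log2 ratio of 0.03 ± 0.04 (SD, n = 3). Eif4b was lower on each plate (-0.33 ± 0.09, adjusted p = 0.164; -0.20 without plate 3), and the core genes Eif4e (0.09 ± 0.10), Eif4a1 (-0.13 ± 0.08) and Eif4g1 (-0.02 ± 0.08) did not pass. Sums of eIF2 and eIF4 had mean log2 ratios of 0.05 ± 0.11 and -0.04 ± 0.04.

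**Figure D4:**
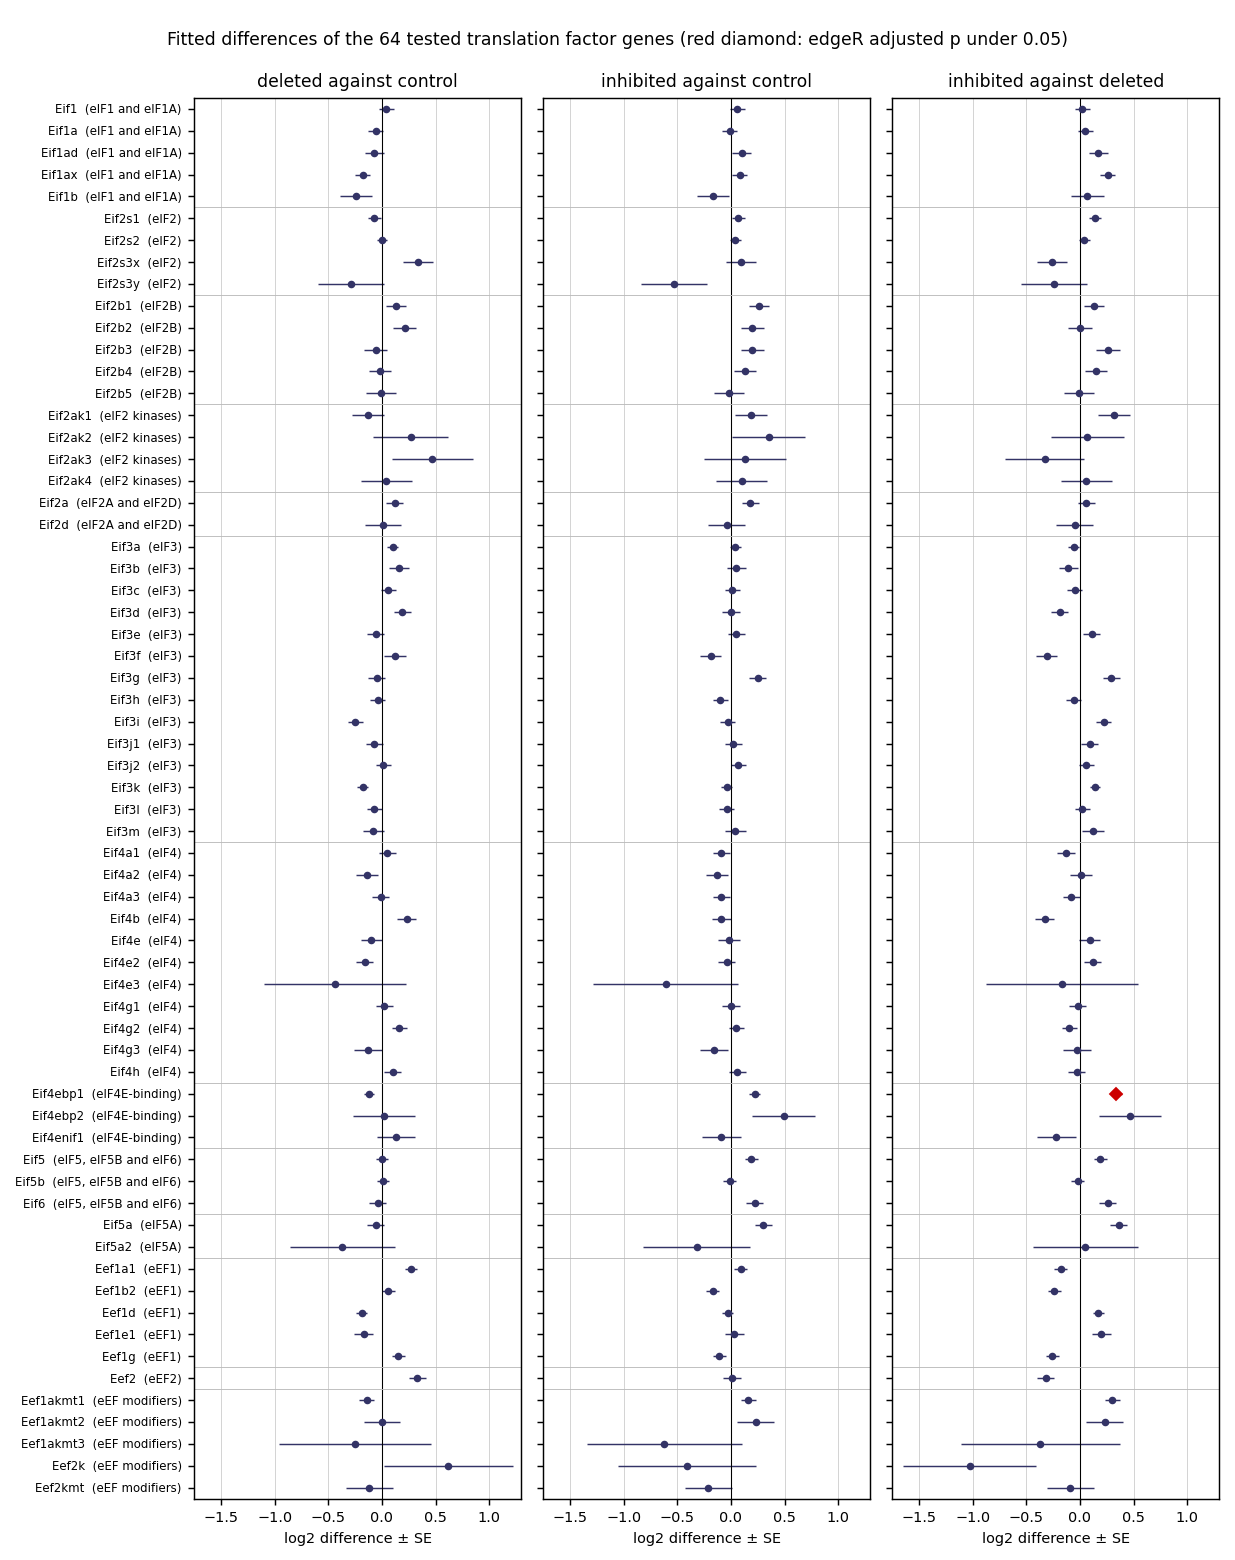
Fitted log2 difference ± SE of each of the 64 tested factors, by factor group, in the 3 comparisons. The single red diamond, Eif4ebp1 in inhibited against deleted cells at 0.34, marks the adjusted p under 0.05.

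Several factors are encoded by pairs of related genes, and some of them dominated by 1 member. Of the UMIs of Eef1a1 and Eef1a2, at most 0.0105% came from Eef1a2, the form of muscle and neurons. Eif5a2 gave 0.112 to 0.355% of the eIF5A pair, and Eif4ebp2 0.164 to 0.383% of its pair with Eif4ebp1. Others were shared more evenly. The second member gave 44.1 to 53.7% of UMIs for Eif1ax with Eif1a, 32.0 to 44.1% for Eif4a2 with Eif4a1, 12.2 to 16.5% for Eif4g3 with Eif4g1, 12 to 19.9% for Eif1b with Eif1 and 67.2 to 70.0% for Eif3j2 with Eif3j1. Eif4e2 and Eif4e3 together gave 54.2 to 61.0% of the eIF4E family. Reads that fit both members may have been split, dropped or assigned to one, which the labels do not state.

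The X- and Y-linked genes of the eIF2 gamma subunit were the pair whose shares differed most from control, in percentage points. Eif2s3y gave 18.1, 22.8 and 11.4% of the pair's UMIs in the inhibited libraries of plates 1 to 3. It gave 20.3, 12.4 and 16.8% in the deleted and 21.3, 30.7 and 19.4% in the control libraries. Each plate was lower than control in both. The mean difference was -6.33 ± 2.76 percentage points for inhibition and -7.30 ± 9.57 for deletion (SD, n = 3). The exact two-sided sign-flip test over plates gave p = 0.25 for each, the smallest that 3 plates allow, and adjusted over 30 tests no p was under 0.789. With wells thinned to equal depth the direction did not hold on all plates in either comparison. The library with the fewest UMIs of the pair held 1089 of them. As a gene of its own Eif2s3y had log2 differences from control of -0.53 ± 0.31 after inhibition and -0.29 ± 0.31 after deletion (adjusted p = 0.666 and 0.829).

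**Figure D5:**
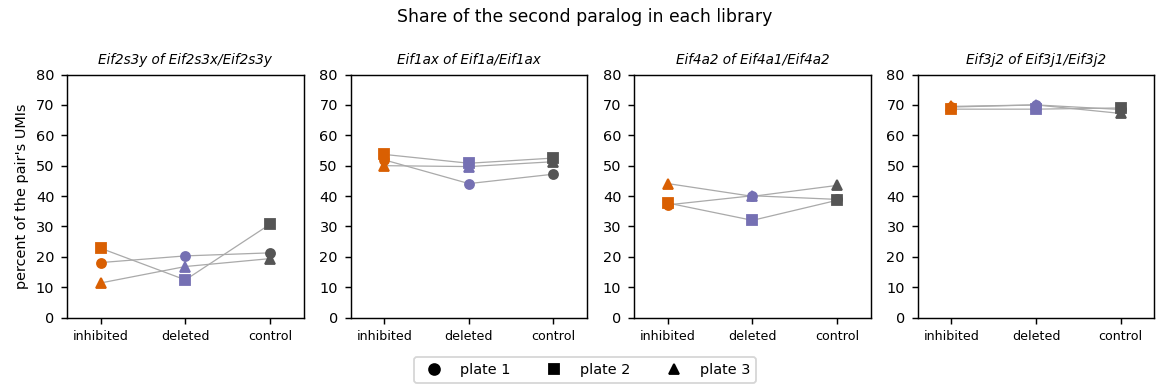
Percent of a pair's UMIs that came from the second gene, in each library, with lines joining the cell types of 1 plate. The Y-linked Eif2s3y is lower in inhibited and deleted than in control cells on each plate, while Eif3j2 stays between 67.2 and 70.0% throughout.

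Many messenger RNAs of the translation machinery begin with a C followed by a run of pyrimidines, the terminal oligopyrimidine tract, through which mTORC1 and LARP1 control their translation and stability. The start windows of the factors were searched for it on the strand that reads as the messenger RNA, after the values above had been seen. RefSeq windows (GRCm38.p6) were at hand for 52 factors, not for Eif4ebp1, Eef1g, Eef1d or Eif3i. A C at the annotated start followed by at least 4 bases that are each C or T was found in 2 factors, Eif2s3x and Eif3f, and in 3.01% of all 27025 genes. The 10 bases before and the 30 bases from the annotated start are given below for these 2, for the Y-linked relative of Eif2s3x, and, as examples of a tract that lies further in, for Eef2, Eif4b and Eif3k, with the tract in capitals.
Eif2s3x (chrX:94212622-94212661, minus strand): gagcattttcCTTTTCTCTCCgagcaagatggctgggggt
Eif2s3y (chrY:1010585-1010624, plus strand): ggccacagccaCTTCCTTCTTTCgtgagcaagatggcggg
Eif3f (chr7:108934405-108934444, plus strand): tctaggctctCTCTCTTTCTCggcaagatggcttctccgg
Eef2 (chr10:81176621-81176660, plus strand): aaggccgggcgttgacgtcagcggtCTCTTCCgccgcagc
Eif4b (chr15:102073763-102073802, plus strand): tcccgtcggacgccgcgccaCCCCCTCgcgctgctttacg
Eif3k (chr7:28981859-28981898, minus strand): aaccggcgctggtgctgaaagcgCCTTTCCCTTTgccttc

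By the annotated starts the tract of Eif2s3y begins at base 2, of Eif3k at base 14, of Eef2 at base 16 and of Eif4b at base 11. Counting any C followed by at least 6 such bases within 50 bases of the start, 19 of the 52 factors (36.5%) had a tract, against 23.4% of all genes. Of these 17 were tested, and 33 tested factors had a window without a tract. Both classes rest on annotated starts, which were not checked against measured ones. Eef1a1 and Eef1b2, for instance, counted as without a tract. The median log2 difference after deletion was 0.04 with and -0.00 without a tract. After inhibition it was 0.01 with and 0.04 without, and for inhibited against deleted cells -0.01 with and 0.05 without. The ranges overlapped in each comparison, for example -0.29 to 0.62 with and -0.37 to 0.47 without a tract after deletion. A match is a description of the letters, not a site shown to act.

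Of 13 termination, recycling and poly(A)-binding factors, 20 genes that control eIF2, eIF4 and eIF5A, 22 cytosolic tRNA synthetases and scaffolds, and 10 mitochondrial translation factors, none was called by edgeR in any comparison. At an unadjusted p under 0.05 the termination list had 0 genes after deletion, against 10.3% of all genes, and 2 after inhibition, against 9.0%. These 2 were Paip1 (0.34 ± 0.13) and Paip2 (0.21 ± 0.08), a pair that regulates poly(A)-binding protein. The list of genes that control eIF2, eIF4 and eIF5A had 0 of 20 after deletion and 3 of 20 after inhibition, among them the eIF2 phosphatase subunit gene Ppp1r15b (-0.34 ± 0.13, adjusted p = 0.484) and Dohh (0.24 ± 0.09, 0.487). Between inhibited and deleted cells the smallest p in these lists were those of Metap2, a methionine aminopeptidase gene (0.26 ± 0.07, adjusted p = 0.168), and Gfm2, a mitochondrial factor gene (0.59 ± 0.18, 0.191). Denr, a recycling factor gene, had a log2 difference of 0.18 ± 0.06 (0.199), and Rps6kb1, an S6 kinase gene, one of 0.36 ± 0.12 (0.212).

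The tRNA synthetase list had 4 genes higher at an unadjusted p under 0.05 after inhibition (4.77% of all genes) and 2 after deletion (5.11%). It summed to 4616 to 4756 CPM in inhibited, 4537 to 4659 CPM in deleted and 4182 to 4443 CPM in control libraries. Qars, the glutaminyl-tRNA synthetase gene, had 311, 258 and 313 CPM in inhibited, 236, 233 and 380 CPM in deleted, and 209, 211 and 198 CPM in control libraries. It was higher than in every control library in both, with log2 differences of 0.50 ± 0.14 (adjusted p = 0.365) and 0.43 ± 0.14 (0.332). Aars, the alanyl-tRNA synthetase gene, had 546, 401 and 497 CPM in inhibited, 499, 422 and 499 CPM in deleted, and 423, 384 and 369 CPM in control libraries. Its differences were 0.29 ± 0.08 (adjusted p = 0.365) and 0.27 ± 0.08 (0.291). These comparisons share the control libraries. Among mitochondrial factors, the elongation factor gene Gfm1 was at 41.4 CPM in inhibited and 42.1 CPM in deleted cells, against 34.5 CPM in control cells on average, with differences of 0.26 ± 0.11 and 0.29 ± 0.11 that did not pass. Gfm2, the mitochondrial ribosome recycling factor gene, averaged 12.1 CPM after deletion, against 18.1 CPM in control (-0.56 ± 0.18, adjusted p = 0.328).

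Some of the factors' counts are uncertain. Eif1ad shares 428 exon bases with Banf1 on the opposite strand, a gene with 446347 UMIs, and Eef1d shares 277 with Naprt on the same strand. Also on the opposite strand, Eif3j1 shares 1107 with Spg11 and Eif5b 1643 with Rev1 (15775 UMIs). Eif3d shares 2151 with Gm17638 (217 UMIs), again on the opposite strand. The labels do not say whether counting used strand, so reads of such pairs cannot be told apart. Pseudogene copies of Eif1, Eif3e and Eif5a have columns of their own, to or from which reads could have passed.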

How the data were processed

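The deposited count tables hold raw UMI counts per gene and well, from which the authors' report tables give each well's type and plate. The submitters' processing notes name the mouse build mm10, featureCounts, Subread 1.4.6-p1 and STAR 2.5.2b, without their order. Strand use, multi-mapping reads and the transcript end are not given in the sources used here. Of 4610 wells of the 3 cell types, 4413 with at least 1000 genes and under 20% mitochondrial UMIs were kept, and 197 were left out. UMIs were summed per plate and cell type into 9 libraries of 25914860 to 43773924 UMIs, with medians of 23556 to 58507 UMIs per well. Columns of spike-ins and reporters (0.646 to 0.752% of UMIs) were left out. Genes were named from GENCODE M21 (28641 of 29267 identifiers), and no doublet caller was run.

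All genes passing filterByExpr (17119) were fitted with edgeR 4.0.16 in R 4.3.3 (quasi-likelihood F test, TMM, cell type plus plate as a block), with Benjamini-Hochberg adjustment over all of them and a threshold of 0.05. Each ± after a log2 difference is the fit's SE. CPM divide UMIs by the effective library size. All cell types lie on every plate, and deviations of libraries of the same plate correlated (r 0.0782 to 0.141 over 9 pairs, against -0.101 to 0.00858 over 18 pairs of different plates). Sums over factors were described without a test, and paralog shares were compared by exact sign-flip tests over plates. The procedure was tested on simulated counts with known changes in genes of at least 10 CPM. It called 39 to 42% of 1.5-fold and 84 to 87% of 2-fold changes, with 7 to 16 false calls per comparison. Smaller folds were not simulated, and the simulated counts held no differences between plates other than library size. DESeq2 1.42.0, other size factors, no filter, no plate block, wells thinned to 5869 UMIs (442 shallower wells left out), stricter wells, no mitochondrial genome, without the deepest 5% of wells and without each plate were the alternatives. Only plates count as replicates.

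The members and lists were chosen with earlier results of these data known. Named are members past the threshold, all subunits of eIF2, eIF2B, eIF3 and eEF1, the eIF4F core, the eIF2 kinases and 4E-binding proteins, the 10 with the smallest p per comparison, the 10 with the highest level, the paralog pairs, and up to 2 genes per other list and comparison.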

Additional observations from a re-analysis of the deposited data

Results flagged for a closer look

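In the main fit Eif4ebp1 differed between the effects of inhibition and deletion. Its log2 difference from control was 0.22 ± 0.05 after inhibition (adjusted p = 0.313) and -0.12 ± 0.05 after deletion (0.433), neither past the threshold. The difference between them, tested directly as inhibited against deleted, was 0.34 ± 0.05 (edgeR adjusted p = 0.0273). Its direction was the same on 3 of 3 plates, as for 33.1% of all genes. The call did not hold without plate 1 (edgeR adjusted p = 0.388) or without plate 2 (0.442). Nor did it hold without the plate as a block (0.444) or without the deepest 5% of wells (0.0550).

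Wells loaded with control RNA, outside every comparison, held translation factor UMIs. In 15 such wells 302 of 20306 UMIs (1.49%) came from the factors, with 43 of the factors seen, against 2.65% in 15 wells without cells and 2.39% in kept wells. The median was 904 UMIs per well of control RNA.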

How the results depend on the processing

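Factors called in deleted against control cells numbered 0, against 2 with no filter on low counts, 1 with thinned wells and 3 with DESeq2. In inhibited against control cells they numbered 0, against 2 with no filter and 2 with DESeq2. In inhibited against deleted cells 1 was called, against 0 with no replicate block, 4 with no filter, 5 with thinned wells, 0 without the deepest 5% of wells and 11 with DESeq2, and 0 to 2 when 1 plate was left out. Of the summed log2 ratios of inhibited to control cells, thinning gave -0.03 for eIF2, -0.03 for eIF3, -0.09 for eEF1 and 0.03 for all factors, and leaving out the deepest wells gave 0.01 for eIF2, -0.06 for eEF1 and 0.07 for all factors. Over all factors thinning gave 0.06 for inhibited against deleted cells. Paralog pairs with 1 direction on every plate numbered 3, 2 and 2 in deleted against control, inhibited against control and inhibited against deleted cells. Thinning gave 1 in the last, and leaving out 1 plate gave 4 to 6, 3 to 6 and 4 to 5, since fewer plates had to go the same way. The cause of the other shifts was not tested.

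Of 330 values for 30 named results, 300 kept their direction and side of the threshold, 26 passed it only under an alternative, 4 no longer passed and 0 reversed. With no replicate block Eif4ebp1 had a log2 difference of 0.35 (adjusted p = 0.444), and the block changed no other call among the named results. With 3 plates the exact paralog test cannot go below p = 0.25, and factors near 1 CPM rest on few UMIs.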

Other observations

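Processed pseudogenes of the factors also had columns of their own. Eif3s6-ps1 had 1922 UMIs over all kept wells, Eif5al3-ps 1036, Eif3s6-ps2 475, Eif1-ps1 295 and Eif1-ps3 1. Eif3s6-ps1 stood at 5.08 to 6.87 CPM over the 9 libraries, and Eif5al3-ps at 2.23 to 4.70 CPM.

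In single wells thinned to 5869 UMIs, Eif2s2 had medians of 16 to 26 UMIs in inhibited, 15 to 25.5 in deleted and 18 to 26 in control libraries, with the lowest on plate 3 in each cell type. Eef2 was seen in 75.3 to 89.1% of such wells of inhibited, 81.9 to 91.6% of deleted and 78.4 to 83.2% of control libraries. Eif2s3y was seen in 3.39 to 6.41% of thinned wells over all libraries. UMIs of the kind found in wells without cells are not subtracted from these shares.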
